A study of Mus musculus with 37 samples.

Results

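The CoREST complex joins the lysine demethylase Kdm1a to a scaffold and to histone deacetylases, and the transcription factor Rest is its best known partner on neuronal genes. The genes described here are Kdm1a, the scaffolds Rcor1, Rcor2 and Rcor3, the deacetylases Hdac1 and Hdac2, the PHD finger protein Phf21a, the HMG box protein Hmg20b, and Rest. They were chosen by name for their role, with earlier results of these data known. All 9 were found among the 48795 genes of the count table. RNA of whole hippocampus was sequenced from 3 control and 3 Kdm1a-ifKO male mice on a C57BL/6J background, with 1 mouse per library. Kdm1a-ifKO mice carried floxed Kdm1a alleles and the Camk2a-creERT2 transgene, whose Camk2a promoter limits recombination to principal neurons of the forebrain. They received 5 intragastric doses of tamoxifen (TMX) at 8 weeks of age. Control mice, labelled WT, were littermates without the recombinase that received the same TMX, and the age at dissection is not stated for these libraries. Interneurons, glia and vessels of the ifKO tissue thus keep intact Kdm1a. The control libraries held 19160327, 19088998 and 18985542 counts and the Kdm1a-ifKO libraries 19469947, 19445743 and 19370926 (replicates 1 to 3). The CTCF ChIA-PET data are 1 library of male mice labelled WT and tamoxifen-treated. Its nuclei were sorted from hippocampal Camk2a+ neurons of Camk2a-creERT2 mice crossed to the CAG-Sun1/sfGFP reporter, which were 12 weeks old and 1 month past TMX.

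As background, Kdm1a removes methyl groups from lysine 4 of histone H3. In the CoREST complex it works together with an Rcor scaffold, whose other end holds Hdac1 or Hdac2. Phf21a reads the unmethylated lysine that Kdm1a leaves behind, and Hmg20b is a DNA-bending subunit of the same complex. Rest binds a long DNA element near genes of neuronal function and brings CoREST there through its C-terminal part, while its N-terminal part recruits Sin3 complexes, and its level is low in mature neurons.

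The exons removed from Kdm1a are shown first, since they define what the knockout allele lacks. Kdm1a (ENSMUSG00000036940) lies on the minus strand of chromosome 4 from 136550540 to 136602723 in GRCm38. In its principal transcript of 19 exons, exons 5 and 6 hold 93 and 107 bases, together 200, which leaves a remainder of 2 after division by 3. Joining exon 4 to exon 7 shifts the reading frame from 853 codons to 261 codons before a stop. The capitals in exon 7 mark this stop codon, which begins at base 51 of the exon. The annotated transcript with an additional early exon (20 exons) numbers its exons differently, and its exons 5 and 6 hold 79 and 93 bases. These numbers thus do not name the pair printed below, whereas the allele lacks the same genomic segment in every transcript. The numbering of the principal transcript was used here, and the study does not state which one it used. By the other numbering, the loss would also put a stop codon in the exon numbered 7. The last sequence is the alternative exon of 12 bases, in capitals throughout, that marks the neuronal isoform of Kdm1a.
Kdm1a exon 5, chr4:136573073-136573165, minus strand: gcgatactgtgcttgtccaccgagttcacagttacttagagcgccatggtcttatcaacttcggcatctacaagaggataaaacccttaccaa
Kdm1a exon 6, chr4:136572218-136572324, minus strand: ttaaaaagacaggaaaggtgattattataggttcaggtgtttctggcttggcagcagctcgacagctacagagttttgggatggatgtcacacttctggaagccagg
Kdm1a exon 7, chr4:136570458-136570539, minus strand: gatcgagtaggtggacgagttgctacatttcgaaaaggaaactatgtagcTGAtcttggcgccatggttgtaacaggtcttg
Kdm1a alternative exon, chr4:136563438-136563449, minus strand: GACACTGTCAAG
Counts per gene do not separate transcripts with and without these exons, so that reads of the recombined mRNA outside exons 5 and 6 are still counted for Kdm1a.

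Among the called genes, Kdm1a fell and Rest rose by a similar factor, Rcor2 rose by a smaller one, and Phf21a and Hmg20b rose by the least. Called means here an adjusted p under 0.05, from the quasi-likelihood test of edgeR adjusted by Benjamini-Hochberg over all 16799 tested genes. Of the 9 genes, all tested, 4 were called higher (6.04% of all tested genes) and 1 lower (2.82% of all), 5 in either direction (8.85% of all). With a log2FC over 0.5 there were 2 (Rest and Rcor2, 3.15% of all), with a log2FC over 1 there was 1 (Rest, 1.36% of all), and with a log2FC under -1 there was 1 (Kdm1a, 0.0655% of all). In 8 of the 9 the libraries of the genotypes did not overlap, as in 30.0% of all tested genes. Kdm1a is the gene deleted by design, so its fall is no finding about the complex. Without it, 4 of 8 genes were called higher and 0 lower, and 7 of 8 did not overlap. The median log2FC was 0.24 over the 9 genes, 0.26 over the 8 without Kdm1a, and 0.00 over all tested genes (-0.0034).

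**Figure D1:**
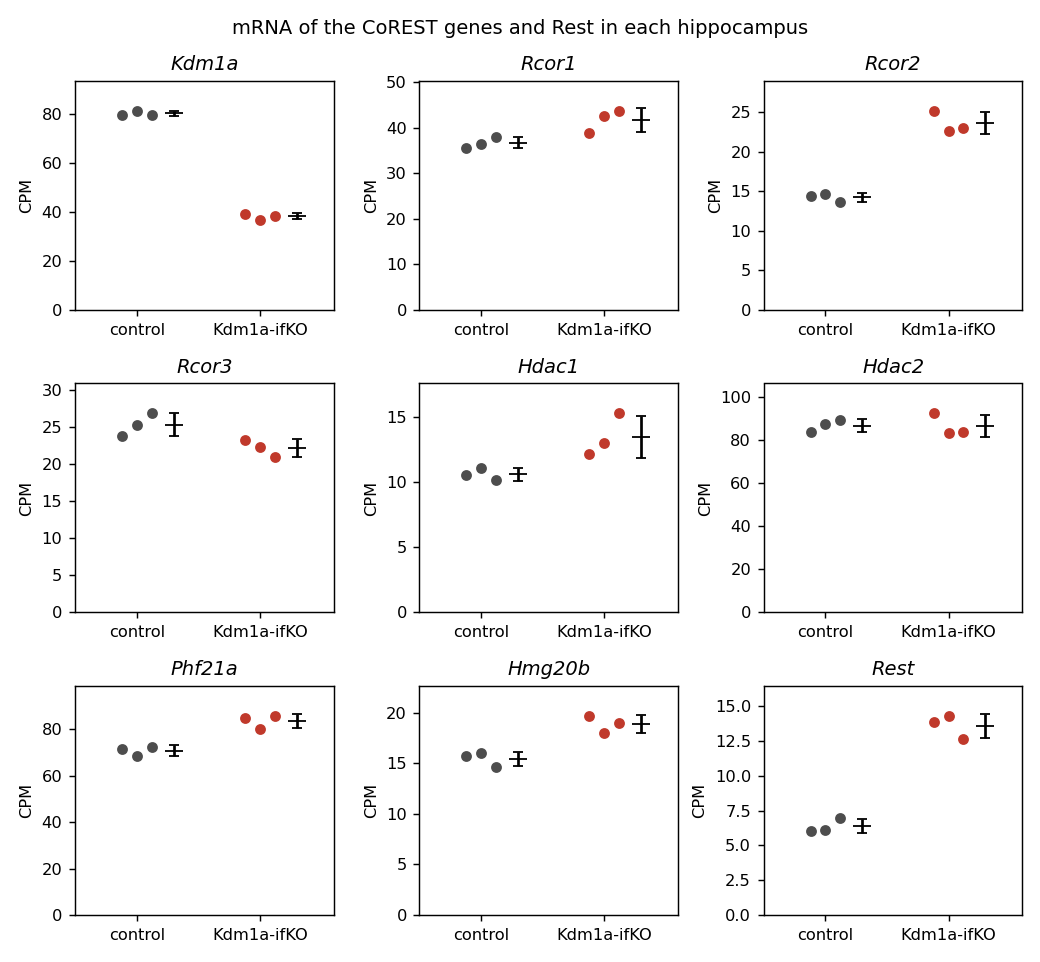
CPM (axis from 0) of the 9 genes in each library, grey for control and red for Kdm1a-ifKO, with the mean and SD of 3 mice in black beside the points. The groups are far apart for Kdm1a, Rcor2 and Rest and overlap for Hdac2, with 80.1 against 38.2 CPM for Kdm1a and 6.38 against 13.6 CPM for Rest.

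Kdm1a, the catalytic subunit, had 79.5, 81.1 and 79.6 CPM in the control libraries and 39.3, 36.9 and 38.4 CPM in the Kdm1a-ifKO libraries (CPM are counts scaled to the normalized library size). The groups lay far apart, with little spread within either. Mean and SD over 3 mice were 80.1 ± 0.897 CPM in control and 38.2 ± 1.23 CPM in Kdm1a-ifKO mice, with a log2FC of -1.07 (95% interval -1.19 to -0.95, adjusted p = 6.24e-08 in edgeR). Among the 3004 tested genes with at least its control CPM, 1 gene had a log2FC this low, which was Kdm1a itself. In whole tissue, fewer cells of a type and less RNA per cell cannot be told apart, and the remaining counts include cells outside the Cre line. Kdm1a overlaps Luzp1 over 4241 bases on the opposite strand and Gm12987 (3 counts) on its own strand. The strand setting of the counting is not given in the sources used here, so that reads of this stretch are uncertain, and Luzp1 itself had a log2FC of -0.08 (adjusted p = 0.473 in edgeR).

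Among the scaffolds, Rcor2 moved most. It had 14.4, 14.7 and 13.6 CPM in control libraries and 25.1, 22.6 and 23.0 CPM in Kdm1a-ifKO libraries. Every Kdm1a-ifKO library stood above every control library. Mean and SD (n = 3) went from 14.2 ± 0.556 to 23.6 ± 1.35 CPM, and the log2FC was 0.73 (95% interval 0.56 to 0.90, adjusted p = 6.56e-05 in edgeR), or 1.66-fold. Of the 9247 tested genes with at least its control CPM, 43 had a log2FC at least as high, Rcor2 included. Rcor1, the scaffold with the highest CPM in controls, had 35.7, 36.4 and 38.1 CPM in controls and 38.8, 42.6 and 43.8 CPM in Kdm1a-ifKOs. These groups touched without overlap, and the log2FC of 0.18 (95% interval 0.04 to 0.33) was not called (adjusted p = 0.105 in edgeR). Rcor3 had 23.8, 25.3 and 26.8 CPM in controls and 23.3, 22.3 and 20.9 CPM in Kdm1a-ifKOs. Here the Kdm1a-ifKO libraries were the lower ones, without overlap and without a call (log2FC -0.19, 95% interval -0.35 to -0.02, adjusted p = 0.146 in edgeR). Rcor3 overlaps Gm26879, Gm37055 and Gm10516 on the opposite strand, of which Gm10516 held 930 counts over the 6 libraries. Rcor1 overlaps Gm46379 and Gm48632, which are not among the counted genes, and Rcor2 overlaps no annotated gene.

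Neither of the deacetylases that Rcor proteins hold was called. Hdac2 had 83.7, 87.5 and 89.4 CPM in controls and 92.6, 83.5 and 83.8 CPM in Kdm1a-ifKOs. The groups overlapped, and the 95% interval of its log2FC, -0.13 to 0.12, bounds the change at this depth (adjusted p = 0.978 in edgeR). Hdac1 had 10.6, 11.1 and 10.2 CPM in controls and 12.2, 13.1 and 15.3 CPM in Kdm1a-ifKOs. All Kdm1a-ifKO libraries were above all controls, with the highest value in replicate 3. Its log2FC of 0.35 (95% interval 0.12 to 0.58) was not called (adjusted p = 0.0607 in edgeR), but was called with upper-quartile normalization (adjusted p = 0.0426 in edgeR) and without a filter on low counts (adjusted p = 0.0226 in edgeR).

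Phf21a, the reader of unmethylated lysine 4, had 71.6, 68.4 and 72.6 CPM in controls and 85.0, 80.0 and 85.8 CPM in Kdm1a-ifKOs. The groups did not overlap. The log2FC was 0.24 (95% interval 0.12 to 0.36, adjusted p = 0.0167 in edgeR), and the call was lost without control replicate 2 (adjusted p = 0.0819), Kdm1a-ifKO replicate 1 (0.0726) or Kdm1a-ifKO replicate 3 (0.0908). Hmg20b had 15.7, 16.0 and 14.7 CPM in controls and 19.7, 18.0 and 18.95 CPM in Kdm1a-ifKOs. Again no library of one genotype reached into the other. The log2FC was 0.29 (95% interval 0.11 to 0.46, adjusted p = 0.0444 in edgeR). This call did not survive the removal of any single library (adjusted p from 0.0517 to 0.147) and was absent with DESeq2 (adjusted p = 0.137). Phf21a overlaps Gm13780 on the opposite strand and Mir1955, Gm13786 and Gm13785 on the same strand, which together held 3 counts over the 6 libraries, and Hmg20b, Hdac1 and Hdac2 overlap no annotated gene.

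Rest, the DNA-binding partner, was counted 116, 116 and 130 times in control and 270, 282 and 246 times in Kdm1a-ifKO libraries. In CPM these were 6.07, 6.09 and 6.99 against 13.9, 14.3 and 12.6. The lowest Kdm1a-ifKO library was well above the highest control library. From 6.38 ± 0.524 CPM the mean went to 13.6 ± 0.875 CPM (SD of 3 mice), a 2.13-fold rise with a log2FC of 1.09 (95% interval 0.85 to 1.33, adjusted p = 2.89e-05 in edgeR). Rest was called under every alternative run, with a log2FC between 1.05 and 1.16 and adjusted p-values of at most 0.000466. Of the 16799 tested genes, 229 had a log2FC at least that of Rest, and 21 of the 11344 with at least its control CPM. Rest (ENSMUSG00000029249) lies on chromosome 5 from 77265491 to 77286432 and overlaps Mir5098 on the same strand, which had 0 counts. Rest mRNA is known from glia as well as neurons, and the cell type that carried the increase cannot be read from whole tissue.

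Levels between genes were compared as TPM, which divides counts by the summed exon length. In controls the order was Hdac2 (77.1 ± 2.25 TPM), Kdm1a (61.4 ± 0.713 TPM), Phf21a (32.9 ± 1.00 TPM), Rcor1 (25.7 ± 0.772 TPM), Hmg20b (19.5 ± 0.937 TPM), Rcor2 (17.9 ± 0.751 TPM), Hdac1 (12.3 ± 0.583 TPM), Rcor3 (7.38 ± 0.412 TPM) and Rest (3.51 ± 0.276 TPM; SD, n = 3 each). No pair of neighbours in this order overlapped between libraries, although the lowest Hmg20b library (18.44 TPM) and the highest Rcor2 library (18.43 TPM) were nearly equal. In Kdm1a-ifKOs and by these lengths, Kdm1a (29.4 ± 0.757 TPM) came level with Rcor2 (29.9 ± 1.59 TPM) and Rcor1 (29.3 ± 1.89 TPM), and these 3 overlapped, while Rest (7.53 ± 0.522 TPM) moved above Rcor3 (6.50 ± 0.360 TPM). The order depends on the length used, most of all for Rcor3, whose union of exons is 13622 bases and longest transcript 3791 bases. With the longest transcript of each gene Rcor3 stood at 20.8 TPM in controls, above Rcor1 at 20.2 TPM and Hmg20b at 19.3 TPM, and each overlapped the next. Hdac1 (16.3 TPM) then stood above Rcor2 (15.7 TPM) with overlap, and Kdm1a (82.6 TPM) overlapped Hdac2 (83.4 TPM). In Kdm1a-ifKOs these lengths left Kdm1a (39.5 TPM) above Rcor2 (26.2 TPM) and Rcor1 (23.0 TPM) without overlap, and Rest (6.09 TPM) below Rcor3 (18.3 TPM), so that neither of these changes of order held. Kdm1a went from above Phf21a in controls to below it in Kdm1a-ifKOs by either length. There Phf21a had 39.0 TPM by unions of exons, without overlap, and 41.4 TPM by longest transcripts, with overlap.

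**Figure D2:**
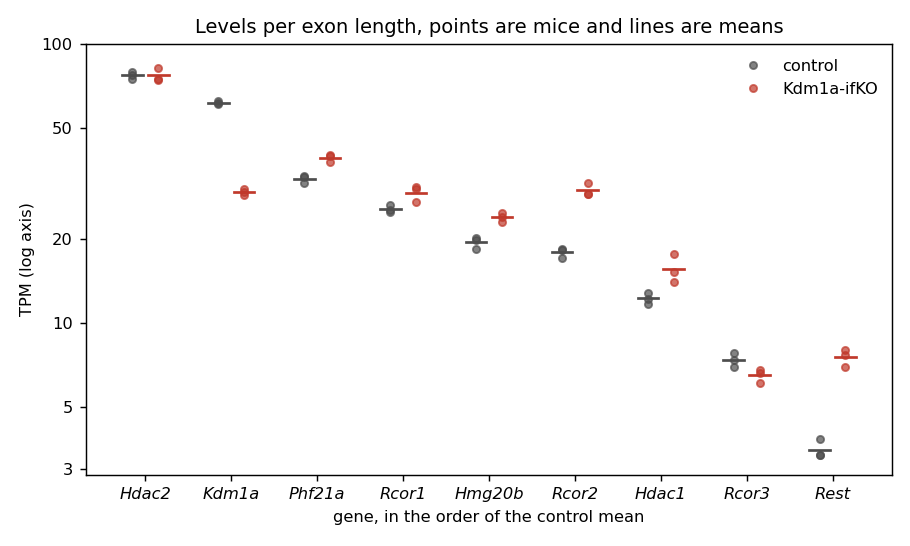
TPM of the 9 genes on a log axis, in the order of the control mean, with 1 point per mouse (grey control, red Kdm1a-ifKO) and a line at each mean. Lengths are unions of exons, by which Kdm1a drops from 61.4 to 29.4 TPM and Rest goes from 3.51 to 7.53 TPM.

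Ratios within a library do not depend on the scaling between libraries, but those between genes depend on the lengths used. The share of Rcor2 in the summed TPM of the 3 scaffolds was 36.3%, 36.0% and 33.2% in controls and 48.3%, 44.0% and 44.1% in Kdm1a-ifKOs. The shares of the genotypes did not overlap, and by these lengths Rcor2 took the place of Rcor1 as the largest share in Kdm1a-ifKO replicate 1 only. Rcor1 went from 50.4% ± 1.10 to 44.7% ± 2.85 and Rcor3 from 14.5% ± 0.655 to 9.90% ± 0.552 (SD, n = 3 each). With the longest transcripts in place of the union of exons, the difference in share, Kdm1a-ifKO minus control, was -1.47 in place of -5.73 percentage points for Rcor1, -9.55 in place of -4.57 for Rcor3 and 11.0 in place of 10.3 for Rcor2. By those lengths Rcor2 (25.4 to 27.8 TPM) had the largest share in every Kdm1a-ifKO library, above Rcor1 (21.3 to 24.0 TPM) and Rcor3 (17.2 to 19.2 TPM). The ratio of Kdm1a to summed Rcor TPM was 1.22, 1.214 and 1.184 in controls and 0.460, 0.436 and 0.449 in Kdm1a-ifKOs. It thus changed with Kdm1a and with the scaffolds, whose sum went from 51.0 ± 0.624 to 65.7 ± 0.0339 TPM (SD, n = 3 each). The share of Hdac2 in Hdac1 plus Hdac2 was 86.3% ± 0.735 and 83.1% ± 2.28 (SD, n = 3 each), lower in Kdm1a-ifKOs without overlap. Without Kdm1a-ifKO replicate 3 the difference was -2.03 in place of -3.17 percentage points. Each of the 5 ratios gave p = 0.1 in a two-sided exact permutation test (0.1 after Benjamini-Hochberg adjustment over the 5). This is the smallest p that this test allows with 3 mice against 3, so that none could pass 0.05 by it.

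**Figure D3:**
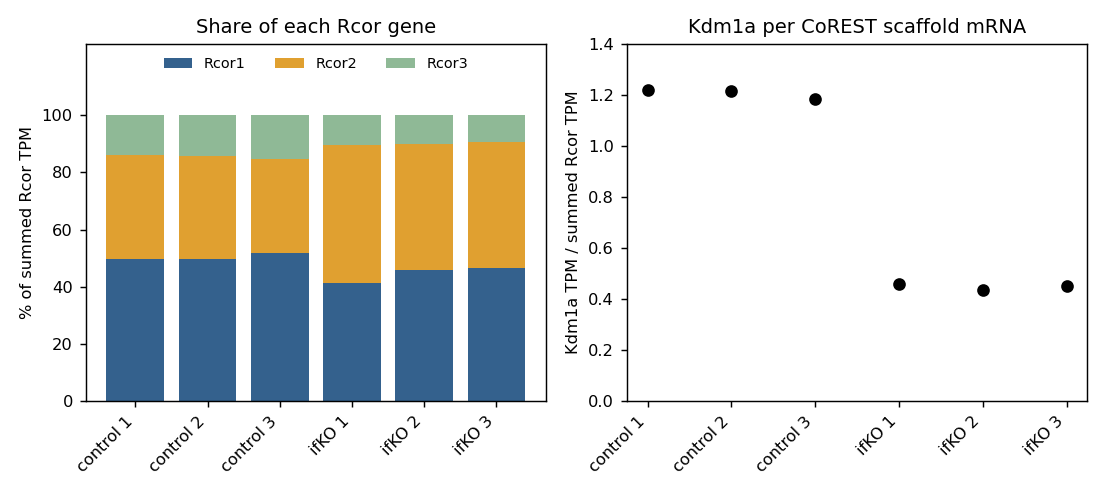
Left, the share of each scaffold gene in the summed Rcor TPM, in percent, as stacked bars per library. Right, the ratio of Kdm1a TPM to summed Rcor TPM in each library, near 1.2 in controls and between 0.436 and 0.460 in Kdm1a-ifKOs.

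Of the 4 paralogs of these genes, all tested, 1 was called higher and 0 lower, against 6.04% and 2.82% of all tested genes (median log2FC -0.01). This was Phf21b, the close relative of Phf21a, at 10.1 ± 0.720 CPM without and 16.9 ± 0.732 CPM with the deletion (SD of 3 mice, log2FC 0.74, 95% interval 0.54 to 0.94, adjusted p = 2.00e-04 in edgeR). It kept its call under all alternatives. Hdac3 (log2FC -0.03), Hdac8 (0.00) and Kdm1b (-0.13) were not called.

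Other proteins that bind Kdm1a or CoREST formed a list of 15 genes, of which 12 were tested and Gfi1, Gfi1b and Snai1 had too few counts. Of the 12, 2 were called higher (6.04% of all tested genes) and 0 lower (2.82% of all), and the median log2FC was 0.15. Rreb1, a zinc finger factor of the CtBP and CoREST complex, was the higher of the pair, at 159.5 ± 13.1 CPM in control and 401 ± 23.8 CPM in Kdm1a-ifKO mice (SD, n = 3 per genotype, log2FC 1.33, 95% interval 1.19 to 1.47, adjusted p = 6.06e-08 in edgeR). L3mbtl3, a reader of methylated lysines, had 26.0 ± 1.37 and 49.5 ± 1.83 CPM (SD, n = 3 each, log2FC 0.93, 95% interval 0.79 to 1.07, adjusted p = 1.23e-06 in edgeR). Both were called under every alternative. The members of this list with the highest control TPM, Ctbp1 and Zmym3, had a log2FC of 0.01 and 0.04 and were not called.

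Complexes that share subunits or targets with CoREST were read against the 8.85% of all tested genes that were called in either direction. Of the 12 genes for Rest corepressors and turnover, 0 were called (median log2FC 0.01, 3 with an unadjusted p under 0.05 in edgeR, 0 called with DESeq2). Its named genes were Fbxw11 (-0.02), a ubiquitin ligase subunit, the methyltransferase Ehmt2 (0.15) and Cdyl (0.24). Of the 12 NuRD subunits, 0 were called (median log2FC 0.04, 1 with an unadjusted p under 0.05, 0 with DESeq2), among them the abundant remodeller Chd3 at 0.03, Mbd3 at 0.08, Gatad2a at 0.10 and Mta1 at 0.15. Of the 11 Sin3 subunits, 1 was called lower, Ing2 (24.45 ± 1.56 and 20.4 ± 0.473 CPM, SD, n = 3 each, log2FC -0.26, adjusted p = 0.0492 in edgeR), and the median log2FC was -0.05. The Ing2 call was kept in 3 of 12 alternatives. Arid4b, at a log2FC of -0.28, was not called, nor were Brms1 (0.04) and Brms1l (-0.11). Of the 12 genes of the NCoR complex and of class II and IV deacetylases, 0 were called (median log2FC 0.03, 2 with an unadjusted p under 0.05, 0 with DESeq2, but 2 higher with upper-quartile normalization). In this list Hdac11 (0.11), Hdac7 (0.21) and Gps2 (0.21) had adjusted p-values of at least 0.0631 in edgeR. Over these 6 lists together, 3 of 63 tested genes were called higher and 1 lower, against 6.04% and 2.82% of all tested genes.

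**Figure D4:**
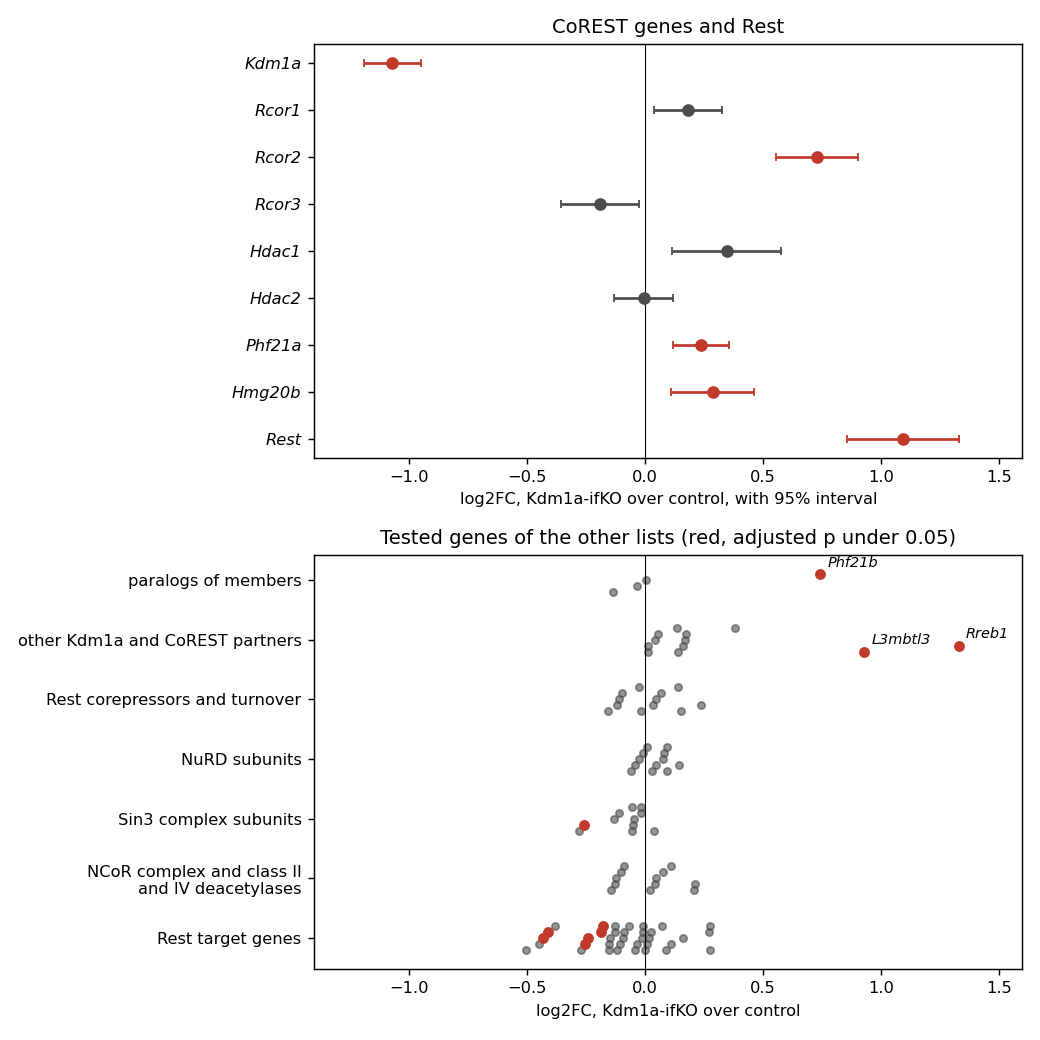
Top, log2FC of Kdm1a-ifKO over control with its 95% interval for the 9 genes, in red where called. Bottom, log2FC of every tested gene of the other lists, 1 point per gene, where Phf21b (0.74), L3mbtl3 (0.93) and Rreb1 (1.33) stand apart and the called Rest target genes lie below 0.

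Genes with a known Rest element were listed as Rest targets, 42 in all, of which 36 were tested. Of these, 0 were called higher (6.04% of all tested genes) and 6 lower (2.82% of all). A log2FC above 0 was found in 10 of 36, against 49.1% of all tested genes, and the median was -0.09. With DESeq2, 2 were called higher (Cacna1h at 0.28 and Scg3 at 0.16, chosen for naming after their values were seen) and 7 lower. Over all 28781 genes in that fit, 873 were called higher and 517 lower. That fit took in every gene with a count, so its total includes low-count genes that edgeR did not test. In edgeR, 18 of the list had an unadjusted p under 0.05. The share of all genes at that unadjusted limit was not taken, here or for the other lists. Of the listed genes, Gad1 also stands among the interneuron markers, and Glra1, Oprm1, Nppa, Nppb, Avp and Drd3 were not tested. Among the 6 called lower were Snap25 and Syt4 of synaptic vesicle release, the growth-associated Stmn2, the neurotrophin Bdnf and the prohormone convertase Pcsk2.

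Snap25 had 2131, 2109 and 2142 CPM in controls and 1852, 1783 and 1769 CPM in Kdm1a-ifKOs. No library overlapped with the other genotype (log2FC -0.24, adjusted p = 0.00527 in edgeR). Syt4 had 142, 164 and 169 CPM in controls and 118, 126 and 114 CPM in Kdm1a-ifKOs. It had the lowest adjusted p of the 6 (log2FC -0.41, adjusted p = 0.00211 in edgeR) and alone among them kept its call under every alternative. Stmn2 (log2FC -0.19, adjusted p = 0.0258 in edgeR), Bdnf (-0.26, 0.0273) and Pcsk2 (-0.18, 0.0378) were lower as well, and Stmn2 and Pcsk2 lost their calls with upper-quartile normalization. Single libraries weigh on the list, with 2 genes called lower without Kdm1a-ifKO replicate 1 or replicate 3, and 3 without control replicate 1 or replicate 2. The calls over all genes moved as well, from 473 lower of 16799 with all libraries. They were 164 of 17122 without Kdm1a-ifKO replicate 1 and 137 of 17099 without replicate 3. Without control replicate 1 they were 584 of 17130, and without control replicate 2 they were 364 of 17129. Stmn3 (-0.13), Tac1 (-0.50) and Glra3 (-0.45) were not called.

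Cell type markers were read beside these genes, again against 6.04% of all tested genes called higher and 2.82% lower. The 6 microglia markers summed to 344, 323 and 353 CPM in controls and 370, 426 and 474 CPM in Kdm1a-ifKOs, without overlap and 1.25-fold higher in the mean. Csf1r was the most abundant by CPM and no marker was at 0, and 3 of 6 were called higher, Cx3cr1 (log2FC 0.27), Csf1r (0.33) and Tmem119 (0.42). With DESeq2, 5 of the 6 were called higher, against 873 of all 28781 genes in that fit, which include low-count genes that edgeR did not test. In edgeR the adjusted p-values of the 3 were 0.0208, 0.0377 and 0.0462, and without Kdm1a-ifKO replicate 3, the library with the highest sum, each lost its call (0.105, 0.1 and 0.103 in the same test). Over all 6 fits with 1 library left out, Cx3cr1 and Tmem119 were each called in 2 and Csf1r in 1. The microglia sum moved in the same direction as Rest, Rcor2, Phf21a and Hmg20b, and its part in their differences was not tested.

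The 10 excitatory neuron markers, with Camk2a as the most abundant, summed to 7564, 7257 and 7256 CPM in controls and 7949, 7199 and 7822 CPM in Kdm1a-ifKOs, which overlap. Of these, Neurod6 was called lower (log2FC -0.36) and C1ql2 (0.55) and Spink8 (0.34) higher. Of the 6 interneuron markers (Gad1 most abundant, sums of 824, 878 and 808 CPM in controls and 814, 785 and 783 CPM in Kdm1a-ifKOs), 1 was called, Vip, which was lower (-0.46). Of the 5 immature neuron markers, 4 were tested and Igfbpl1 was called higher (1.20), with Dcx the most abundant and sums of 56.1, 62.4 and 68.8 against 58.2, 60.4 and 61.4 CPM. The sums of both lists overlapped between genotypes. With 1 library left out, Neurod6 and Spink8 were called in all 6 fits, Vip in 4, and C1ql2, with a dispersion 2.83 times the trend, and Igfbpl1 in 3 each.

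The 6 astrocyte markers, led by Slc1a2, summed to 4623, 4510 and 5133 CPM in controls and 5015, 5172 and 5260.0 CPM in Kdm1a-ifKOs, with Slc1a3 called higher (log2FC 0.22), which held in 2 of 6 fits with 1 library left out. The 7 oligodendrocyte lineage markers, led by Mbp, summed to 5486, 4977 and 5233 against 4637, 5797 and 6044 CPM, and 0 were called in edgeR (1 with an unadjusted p under 0.05, 0 with DESeq2). The 4 endothelial markers, led by Flt1, summed to 154, 149 and 157 against 149, 182 and 157 CPM, with 0 called in edgeR (0 with an unadjusted p under 0.05, 0 with DESeq2). The 7 ependymal and choroid plexus markers summed to 78.7, 47.6 and 50.7 against 77.6, 78.6 and 89.2 CPM, with Kl the most abundant by CPM and the single call (1.28, higher). Ttr, the most abundant of these by TPM, had a log2FC of -1.49 without a call (adjusted p = 0.337 in edgeR), and of -0.59 without control replicate 1. Each of these 4 sums overlapped between genotypes, and no marker of any list was at 0 in all libraries. The 5 markers of thalamus, tissue that could adhere to the hippocampus, summed to 109, 115 and 114 CPM in controls and 120, 127 and 122 CPM in Kdm1a-ifKOs, without overlap, with Prkcd (0.57), the most abundant, the single call. Of the 5, 3 had a log2FC below 0 (median -0.01, Rora lowest at -0.30), so that the sum rests on Prkcd. Whether this tissue bears on any gene above was not tested.

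By Pearson correlation of log2 CPM over the 6 libraries, the genes most like Kdm1a among 15271 were Zfp830 (r = 0.998), Zfp35 (0.9975), Magi2 (0.993), Nkrf (0.993) and Rgs4 (0.992). For Rest these were Gtf2ird1 (0.999), Tmem30b (0.997), Abhd15 (0.997), Pgm5 (0.997) and Bmp8b (0.996). A high r did not require a large change. Zfp830 (log2FC -0.15), Zfp35 (-0.12), Magi2 (-0.12) and Gtf2ird1 (0.20) were not called. Nkrf (-0.32) and Rgs4 (-0.43) were called lower, and Tmem30b (6.95), Abhd15 (2.96), Pgm5 (1.02) and Bmp8b (3.64) higher. The 6 points share their libraries and fall into 2 genotypes, so that r describes these libraries only.

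Promoters were taken from RefSeq (GRCm38.p6), from 250 bases before to 50 bases after the gene start. Entries matched 7 of the 9 genes, with none for Hdac1 and Rest. The letters of the Rest element were searched as CAGCACC, any 2 bases, and GGACAG, on either strand, and each of these parts alone. Both parts in this spacing were in 0 of 7 genes of the complex, 0 of 30 Rest targets with an entry, and 11 of all 27025 genes (0.0407%). CAGCACC alone was in 1 of 7 genes (Phf21a), in 9 of 30 targets (30.0%) and in 8.14% of all genes. GGACAG alone was in 1 of 7 genes (Rcor2), in 10 of 30 targets (33.3%) and in 24.7% of all. A match describes letters, not a site, and the 2 promoters are printed because both genes rose and each holds one part, in capitals, which begins 68 bases before the RefSeq start in Rcor2 and lies on the opposite strand after the start in Phf21a. RefSeq gives 2 promoters for Phf21a, of which the other, at chr2:92221222-92221521, lacks the part. The printed one lies inside the gene as annotated by GENCODE, which begins at 92093117, and the part in Rcor2 is inside the annotated gene as well, which begins at 7267325.
Rcor2, chr19:7267144-7267443, plus strand: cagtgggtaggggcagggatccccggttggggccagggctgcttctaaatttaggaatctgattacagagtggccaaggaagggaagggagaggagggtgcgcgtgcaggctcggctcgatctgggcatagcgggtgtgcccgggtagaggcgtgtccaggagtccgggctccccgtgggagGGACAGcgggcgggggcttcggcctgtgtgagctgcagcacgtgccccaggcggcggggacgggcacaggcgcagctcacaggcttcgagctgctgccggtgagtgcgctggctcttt
Phf21a, chr2:92185233-92185532, plus strand: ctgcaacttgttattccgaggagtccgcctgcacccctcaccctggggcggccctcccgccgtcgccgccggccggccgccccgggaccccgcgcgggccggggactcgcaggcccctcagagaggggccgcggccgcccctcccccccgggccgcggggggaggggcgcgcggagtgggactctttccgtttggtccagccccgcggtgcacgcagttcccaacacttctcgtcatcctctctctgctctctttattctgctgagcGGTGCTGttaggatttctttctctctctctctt
The 10 promoters of the complex had a median of 66.7% G and C, against 52.7% over all promoters. They ranged from 33.3% (Phf21a, chr2:92221222-92221521) to 81.7% (Rcor3), and Hmg20b has more than 1 among them.

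In the single CTCF ChIA-PET library (27786 loops), genes were read for loops with an anchor within 10 kb of the body. A tested gene had a median of 1 such loop. Hmg20b had 14 loops with 75 PETs in all, Rcor2 had 13 loops with 120 PETs, and Rcor3 had 5 loops with 241 PETs, of which 1 loop held 139. Rcor1 and Phf21a had 1 loop each, and Kdm1a, Rest, Hdac1 and Hdac2 had 0, as did 43.1% of tested genes. Gene length and density were not accounted for, and the library has no replicate. With an anchor within 2.5 kb of the gene start, Rcor2 kept 7 loops and Hmg20b 3, while Rcor3, Rcor1 and Phf21a had 0. In this setting 22.6% of tested genes had a loop, with a median of 0.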

How the data were processed

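RNA of the hippocampus of 6 mice (3 control, 3 Kdm1a-ifKO) was read from the gene counts that the authors deposited, made with cutadapt 1.18, HISAT2 2.1.0 and HTSeq 0.11.1, and loops from the PET counts per loop that the authors deposited. The strand setting of HTSeq is not given in the labels. Counts were tested with edgeR 4.0.16 (filterByExpr, TMM, quasi-likelihood fit, robust) in R 4.3.3, with Benjamini-Hochberg adjustment over the 16799 tested genes, and with DESeq2 1.42.0 as an alternative. CPM used TMM library sizes and TPM the union of exons of GENCODE M21 (GRCm38). Upper-quartile and DESeq2 size factors, other filters on low counts, a replicate term and each library left out were tried as well. The members and the lists were chosen with earlier results of these data known. The genes named were all 9 members and, from each other list, those called, the 2 with the highest control TPM and the 2 with the largest absolute log2FC, besides genes overlapping a member and the 5 most correlated with Kdm1a or Rest. Some genes that this rule selects are not reported here, and any other gene is marked where it appears. The scripts were tested on simulated counts. There the share of false calls was above the nominal rate when dispersions varied from gene to gene as in these libraries, mainly in genes with a dispersion well above the trend. The first version of that test failed its limit on false calls, and its limit was then restricted to counts simulated with trended dispersions. The dispersions of the 9 genes were 0.652 to 0.852 of the trend, and 6.04% of tested genes exceeded 2 times the trend.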

Additional observations from a re-analysis of the deposited data

How the results depend on the processing

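Kdm1a (log2FC from -1.09 to -1.04), Rcor2 (0.68 to 0.76) and Rest (1.05 to 1.16) were called under all 12 alternatives, and Rcor1 and Rcor3 under none. Hdac1 was called with upper-quartile normalization (0.37, adjusted p = 0.0426 in edgeR) and with no filter on low counts (0.35, 0.0226). The log2FC of Hdac2 changed sign with upper-quartile normalization (0.0218), with no filter on low counts (0.0011) and over leave-one-out fits (-0.0545 to 0.0204). Phf21a spanned 0.21 to 0.27 in leave-one-out fits, with an adjusted p of up to 0.0908. Hmg20b was not called with DESeq2 (0.29, adjusted p = 0.137), with the replicate block (0.29, 0.0931 in edgeR) or in any leave-one-out fit (0.25 to 0.32).

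The number of members called higher was 4, against 5 with upper-quartile normalization and with no filter on low counts, 3 with DESeq2 and with the replicate block, and 2 to 3 in leave-one-out fits. In the 6 lists of chromatin genes together, 3 were called higher, against 5 with upper-quartile normalization and 3 to 5 in leave-one-out fits. The 1 called lower became 0 with DESeq2, upper-quartile normalization, at least 10 counts in all and the replicate block, 2 with no filter on low counts, and 0 to 1 in leave-one-out fits. Of the Rest targets, 0 were called higher, against 2 with DESeq2, 2 with upper-quartile normalization, 2 with no filter on low counts, 1 with the replicate block and 0 to 1 in leave-one-out fits. The 6 called lower became 7 with DESeq2, 8 with no filter on low counts, 4 with upper-quartile normalization and with the replicate block, where Stmn2 and Pcsk2 were lost, and 2 to 5 in leave-one-out fits.

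Deviations from the group means of same-numbered libraries correlated at r = -0.0326, -0.0911 and -0.148. Libraries of different number correlated at r from -0.0918 to 0.162. No pairing by replicate number was seen, but 3 libraries per genotype cannot exclude it. Over all tested genes, 1014 were called higher and 473 lower, against 797 and 249 with the replicate block, 1447 and 1090 with no filter on low counts, and 646 and 137 without Kdm1a-ifKO replicate 3. DESeq2 called 873 higher and 517 lower, and upper-quartile normalization 1213 and 360. Leave-one-out fits called 646 to 876 higher and 137 to 584 lower. Rcor3 had 5 loops, against 0 when an anchor had to overlap the gene body, and Hmg20b had 14, against 6 from 5 PETs on. In these settings 39.5% and 48.3% of tested genes had a loop.

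With 3 mice per genotype an exact permutation test cannot give a p under 0.1, so the ratios could not be called by that test. No other test of the ratios was run. Rest had the fewest counts of the 9 genes (116 in the lowest library), and its interval, 0.85 to 1.33, is the widest. Whole tissue does not separate cell types, mRNA counts say nothing of protein or of binding, and gene counts do not separate transcripts of Kdm1a.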
